A study of Mus musculus with 48 samples.

Results

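Gene expression in the amygdala was compared between 8 adult male mice without functional Tph2 (Tph2-/-) and 8 wildtype mice (Tph2+/+), all reared in the control condition (C), that is, without maternal separation (MS). Of the 48440 genes in the count table, the 5549 with a mean of at least 10 counts over these 16 libraries were described, after Lars2 and Gm42418 had been left out. The rule used the mean over both genotypes and no difference between them. Just inside it lay 9330162B11Rik and Gatb, both at a mean of exactly 10 counts, and just outside it Gm43311 and Uggt2, both at 9.9375 counts.

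All mice carried the C57BL/6N background, were 4 months old and were bred by mating heterozygous Tph2+/- parents. The null allele is constitutive, so that functional TPH2 is absent at every age, and the comparison therefore does not separate effects of development from those of adult life. The animals had passed through tests of anxiety and of territorial behavior before the brain was taken, and the amygdalae of both hemispheres of each mouse were powdered together. Each library is thus a homogenate of a whole amygdala from 1 animal, in which fewer cells of a type and less RNA per cell cannot be told apart. A further 4 groups of 8 mice, Tph2+/- mice in C and all 3 genotypes in MS, belong to the same series, and of these the Tph2+/+ MS and Tph2-/- MS mice were compared below. All 48 mice entered the fit from which the spread between mice was estimated. MS pups had been taken from their dams for 3 h per day from postnatal day 2 to 15.

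TPH2 hydroxylates tryptophan in the neurons of the raphe nuclei and thereby sets the rate at which the brain makes serotonin (5-HT). The enzyme is made in the raphe, while the axons of these neurons release 5-HT in their targets, among them the amygdala, a limbic region known for its part in fear, anxiety and social behavior. There, 5-HT acts on many receptors of the Htr families, is taken up again by the transporter SERT and is packed into vesicles by the vesicular monoamine transporters.

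Before the comparison, 3 libraries were seen to stand apart. In Tph2+/+ C replicate 1, Lars2 and Gm42418 together took 93.3% of 6296568 counts on genes, and in Tph2-/- C replicate 1 they took 65.9% of 1819527 counts, against 2.67% to 13.9% in the other 14 libraries. Tph2+/+ C replicate 8 held 87745 counts of CT010467.1, an annotated ribosomal RNA. Once both genes had been dropped, between 401837 and 742504 counts per library fell on the genes described, with the lowest number in Tph2+/+ C replicate 1. Between 93.8% and 97.6% of the uniquely aligned pairs lay on no annotated gene in 15 libraries, and 75.8% in Tph2+/+ C replicate 1. Pairs of libraries of the same group differed by more than sampling noise, with chi-square values per degree of freedom of 1.6 to 29.8, and no library was counted as a duplicate. The labels number the animals without explaining the numbers. A set of late numbers belonged to 2 of the Tph2+/+ C and 3 of the Tph2-/- C mice.

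The counts lay largely on genes that face another gene. Exons of 63.5% of the genes described overlapped exons on the opposite strand, compared with 17.5% of all genes in the table. The libraries came from a kit that marks the strand, but the strand setting of the counting is not given in the sources used here, and reads of a gene and of its opposite partner cannot be told apart. Which strand was counted could not be settled, and most pairs lay on no gene. The values below are therefore counts at a gene, also for genes that face no other, and may not stand for its own transcript. Transcripts that are abundant in neurons had few counts of their own, while their partners had many. Syp, which encodes the synaptic vesicle protein synaptophysin, had a median of 12.5 counts and its partner Gm14703 had 4878.5. Grin1, the obligatory subunit of the NMDA receptor, had a median of 2 counts and Grin1os had 1431. For the microtubule protein gene Map2 the medians were 38.5 counts and, for Gm10558 opposite to it, 1322.5 counts. The opposite gene is therefore named below where exons overlap.

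Tph2 itself (chr10:115078641-115185022, minus strand, GRCm38) had 0 counts in all 16 libraries, which allows up to 3 counts, or 4 to 9.12 CPM (counts scaled to the effective size of each library), in a single library. The targeted gene therefore gave no check of the genotype labels in this tissue.

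Few genes were called different between Tph2-/- mice and their wildtype counterparts. A gene was called differentially expressed (DEG) at a nominal p below 0.01 with an absolute log2 fold change (lg2FC) above 0.2, the thresholds of the study. By this rule 26 of 5549 genes, or 0.469%, were DEGs, 17 of them (0.306%) higher and 9 (0.162%) lower in Tph2-/- mice. An even spread of p would put 55 genes below 0.01. None of the 5549 genes reached an adjusted p below 0.05 (edgeR quasi-likelihood test with Benjamini-Hochberg adjustment), 3.28% had a nominal p below 0.05 (1.89% upward and 1.39% downward), and the smallest adjusted p was 0.174. DESeq2 without a prior gave 31 DEGs, 24 higher and 7 lower, and also 0 genes at an adjusted p below 0.05. The split was 41 higher and 5 lower with only the 16 samples in the fit, and 208 higher and 66 lower among 32233 genes with no filter on low counts. Without the 7 mice with late animal numbers, 5 of them in this comparison, there were 21 DEGs, and 4 of the 26 were among them, namely Anp32a, Zmynd11, Gm44853 and Gm26744. All 26 kept the sign of their lg2FC, and the median absolute lg2FC of the 26 was 0.57 without these mice against 0.667 with them. Without both libraries rich in Gm42418 there were again 26, of which 17 were the same. There was no gene for which the CPM of the 8 Tph2-/- mice and those of the 8 Tph2+/+ mice did not overlap.

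The median standard error (SE) of the lg2FC was 0.17, and for 97.2% of the genes the absolute lg2FC plus 2 SE stayed below 1, that is, within a 2-fold difference. A mean below 20 counts was found for 31.8% of the genes and for 16 of the 26 DEGs.

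**Figure D1:**
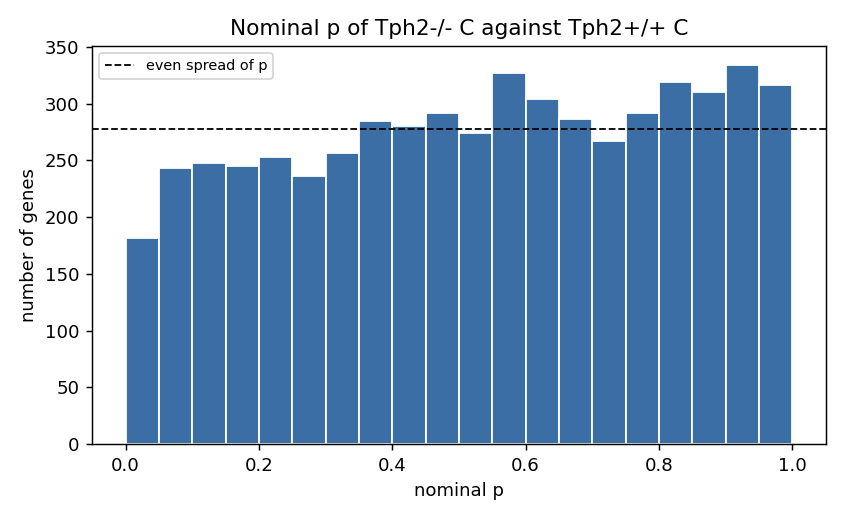
Number of genes in each interval of the nominal p of Tph2-/- C against Tph2+/+ C (bars, 0.05 wide), for 5549 genes. The bar of the smallest p, with 3.28% of the genes, lies below the dashed line that marks an even spread of p.

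Only 8 genes had an absolute lg2FC above 1, and in 7 of them a single mouse, or the libraries named above, held most of the counts. Of these, ENSMUSG00000089855, Gm15564, Gm25732, Mir6236 and the mitochondrial ribosomal RNA mt-Rnr2, had nominal p between 0.0139 and 0.0495 and their highest CPM of each genotype in replicate 1. For mt-Rnr2 the Tph2+/+ C mice ranged from 393 to 54714 CPM with a median of 1024 CPM, and the Tph2-/- C mice from 470 to 8418 CPM with a median of 1141 CPM. The 8th gene, without such a mouse, was Gria1.

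**Figure D2:**
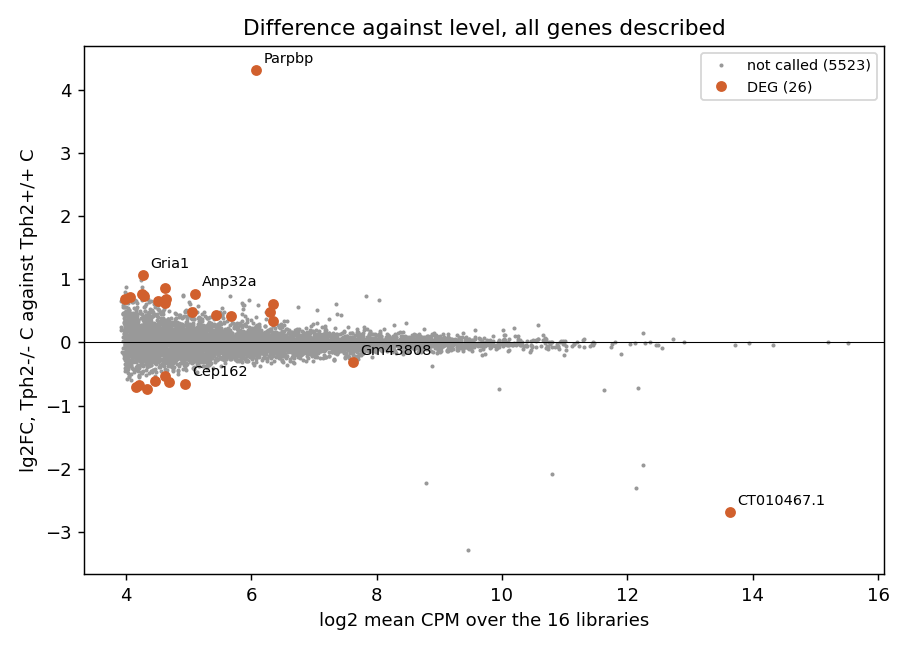
The lg2FC of Tph2-/- C against Tph2+/+ C plotted over the log2 of the mean CPM of the 16 libraries, 1 point per gene, with the 26 DEGs in orange. Most points lie close to 0, the DEGs sit mainly among genes of low level, and Parpbp and CT010467.1 stand far from the rest.

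The 2 DEGs with the smallest p each rested on 1 animal. CT010467.1 (chr17:39846353-39848827, minus strand), annotated as ribosomal RNA and with 1822 exon bases opposite to the dropped Gm42418, ranged from 2877 to 143590 CPM in Tph2+/+ C mice with a median of 3206 CPM, and from 2663 to 3644 CPM in Tph2-/- C mice with a median of 3445 CPM. The highest value came from Tph2+/+ C replicate 8, followed by 13164 CPM in Tph2+/+ C replicate 1, and the other 14 mice overlapped. The lg2FC was -2.69 (SE 0.578), with a nominal p of 3.14e-05, an adjusted p of 0.174 and a two-sided exact permutation p of 0.429. Without Tph2+/+ C replicate 8 the lg2FC was -0.43 with a nominal p of 0.131. Parpbp (chr10:88091432-88146941, minus strand), whose product binds the DNA repair enzyme PARP1, shares 435 exon bases with Pmch on the opposite strand. Pmch encodes the precursor of melanin-concentrating hormone, a peptide made by neurons of the lateral hypothalamus. Parpbp ranged from 0 to 27.1 CPM in Tph2+/+ C mice with a median of 4.46 CPM, and from 1.69 to 964 CPM in Tph2-/- C mice with a median of 9.88 CPM. The value of 964 CPM, or 705 counts, came from Tph2-/- C replicate 7, and the other Tph2-/- mice overlapped with the wildtype. The lg2FC of 4.31 (SE 1.03) had a nominal p of 0.000149, an adjusted p of 0.412 and a two-sided exact permutation p of 0.135, and it was 0.73 with a nominal p of 0.4 without that mouse. Without the mice with late animal numbers the lg2FC was 0.38 with a nominal p of 0.73 for Parpbp and -0.53 with 0.133 for CT010467.1.

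Marker sums were also taken in this mouse. Summed over 10 hypothalamic markers, Tph2-/- C replicate 7 had 32.8 CPM, within the range of 24.9 to 42.8 CPM of its group and of 24 to 60.5 CPM of the Tph2+/+ C mice. Avp, Oxt and Nr5a1 had 0 counts in all 16 libraries. Agrp, which encodes a feeding peptide of the arcuate nucleus, had 9.58 CPM in this mouse and Ctcf, whose exons lie opposite to those of Agrp, 47.9 CPM, while Pmch itself had 10 counts against 1 to 12 over all 16 mice. The sums for choroid plexus, oligodendrocytes (806 CPM) and striatum (27.4 CPM) were the highest of the group in this mouse. These sums take the counts at the markers themselves, which may not stand for their transcripts, and leave out the counts of Parpbp. They therefore cannot show whether other tissue was present. The part of other tissue in the value of Parpbp was not tested.

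Of the other 24 DEGs, 6 kept their call whichever of the 16 libraries was left out: Anp32a and Ddx3x, higher in Tph2-/- mice, and Gm43808, Sp2, Cep162 and Teddm1b, lower. Anp32a (chr9:62341293-62378812, plus strand), an acidic nuclear protein that binds histones and inhibits the phosphatase PP2A, faces no other gene. It ranged from 12.2 to 40.3 CPM in Tph2+/+ C mice with a median of 25.4 CPM, and from 32.1 to 55.2 CPM in Tph2-/- C mice with a median of 45 CPM. Of the Tph2-/- mice, 6 lay above every wildtype mouse and all 8 lay above the wildtype median. The lg2FC was 0.77 (SE 0.199), or 1.71-fold, with a nominal p of 0.000263, an adjusted p of 0.486 and a two-sided exact permutation p of 0.000777. It was the only DEG that was called under each of the 13 other settings and with each single library left out, where its nominal p was at most 0.00126.

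Ddx3x (chrX:13280970-13294052, plus strand), an RNA helicase in translation that is encoded on the X chromosome, ranged from 6.08 to 29.5 CPM with a median of 13.8 CPM in Tph2+/+ C mice and from 17.5 to 45.3 CPM with a median of 33.5 CPM in Tph2-/- C mice. All 8 Tph2-/- mice were above the wildtype median, and 5 wildtype mice were below the lowest Tph2-/- mouse. Its lg2FC was 0.87 (SE 0.268) with a nominal p of 0.00202 and an exact permutation p of 0.00606.

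Gm43808 (chr5:30868764-30870828, minus strand), an unspliced locus whose coding status is still to be tested experimentally, lies opposite to Tmem214, with which it shares 1480 exon bases. Tmem214 encodes a membrane protein of the endoplasmic reticulum. Part of the shared stretch is coding sequence of Tmem214 on the plus strand, and it is shown on both strands because a read pair from either gene would carry these bases. The run lies at chr5:30870589-30870648 of GRCm38, is taken from the GENCODE M21 transcripts and is given 5' to 3' without capitals, since the whole run is shared.
Tmem214 coding strand: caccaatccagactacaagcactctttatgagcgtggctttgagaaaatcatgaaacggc
Gm43808 strand: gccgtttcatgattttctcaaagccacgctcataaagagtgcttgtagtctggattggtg
Gm43808 ranged from 185 to 283 CPM with a median of 220 CPM in Tph2+/+ C mice and from 141 to 217 CPM with a median of 180 CPM in Tph2-/- C mice. Of the Tph2-/- mice, 5 were lower than every wildtype mouse, and none exceeded the wildtype median. It was the DEG with the smallest SE, with a lg2FC of -0.32 (SE 0.0865), a nominal p of 0.000537 and an exact permutation p of 0.00559. Counts of Tmem214 itself were at most 6 per library.

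Sp2 (chr11:96953341-96982959, minus strand), a zinc finger transcription factor with 126 exon bases opposite to D030028A08Rik, ranged from 23.7 to 39.3 CPM with a median of 30 CPM in Tph2+/+ C mice and from 14.7 to 29.1 CPM with a median of 19.4 CPM in Tph2-/- C mice. Its lg2FC was -0.62 (SE 0.184) with a nominal p of 0.00124. Cep162 (chr9:87189577-87255536, minus strand), a centriolar protein needed to build the transition zone of the cilium, ranged from 27.4 to 44 CPM with a median of 37.4 CPM in Tph2+/+ C mice and from 12.4 to 34.2 CPM with a median of 23.1 CPM in Tph2-/- C mice. Its lg2FC was -0.65 (SE 0.193) with a nominal p of 0.00132 and an exact permutation p of 0.00311. Teddm1b (chr1:153874345-153876871, plus strand), a transmembrane protein gene related to one found in the epididymis, ranged from 14.7 to 28.4 CPM with a median of 23.2 CPM in Tph2+/+ C mice and from 8.21 to 20.5 CPM with a median of 13 CPM in Tph2-/- C mice. Its lg2FC was -0.71 (SE 0.227) with a nominal p of 0.00278. In all 3 genes each of the 8 Tph2-/- mice lay below the wildtype median, and the ranges still overlapped. Without the mice with late animal numbers, Sp2, Cep162 and Teddm1b had lg2FC of -0.49, -0.62 and -0.58 with nominal p between 0.0156 and 0.0346, Gm43808 had -0.22 with 0.0404 and Ddx3x 0.88 with 0.0118.

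Rack1 (chr11:48800332-48806434, plus strand), a scaffold on the small ribosomal subunit with 31 exon bases opposite to Trim41, ranged from 9.94 to 26.2 CPM in Tph2+/+ C mice and from 22 to 41.1 CPM in Tph2-/- C mice, with a lg2FC of 0.69 (SE 0.226) and a nominal p of 0.00359. Rpl31 (chr1:39367842-39371911, plus strand), a protein of the large ribosomal subunit with 420 exon bases opposite to Tbc1d8, ranged from 6.08 to 22.7 CPM and from 11.2 to 33.2 CPM, with a lg2FC of 0.77 (SE 0.265) and a nominal p of 0.00528. Eif4a2 (chr16:23107444-23114136, plus strand), an RNA helicase of translation initiation with 194 exon bases opposite to Rfc4, ranged from 36.5 to 85.2 CPM and from 65.1 to 135 CPM, with a lg2FC of 0.60 (SE 0.208) and a nominal p of 0.00544. In each of these 3 genes 6 Tph2-/- mice were above every wildtype mouse, and the ranges overlapped. Rack1 lost its call without Tph2+/+ C replicate 2, 6 or 7 or Tph2-/- C replicate 3 (nominal p up to 0.0139), Rpl31 without any of 7 libraries (up to 0.017) and Eif4a2 without any of 6 (up to 0.0172), the last 2 genes also without Tph2+/+ C replicate 1. Bysl (chr17:47599331-47611492, minus strand), which takes part in building the small ribosomal subunit, has 361 exon bases opposite to the cyclin gene Ccnd3. It ranged from 42 to 90.9 CPM with a median of 64.5 CPM in Tph2+/+ C mice and from 66.7 to 144 CPM with a median of 87.8 CPM in Tph2-/- C mice, with a lg2FC of 0.48 (SE 0.15) and a nominal p of 0.00243. Its nominal p was 0.0113 without Tph2+/+ C replicate 7 and 0.0202 without Tph2-/- C replicate 7, which held the value of 144 CPM. Without the mice with late animal numbers the lg2FC of Bysl was 0.28 with a nominal p of 0.111.

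Gria1 (chr11:57011387-57330244, plus strand), which encodes the GluA1 subunit of the AMPA receptor and faces no other gene, ranged from 3.04 to 18.9 CPM with a median of 12.9 CPM in Tph2+/+ C mice and from 13.3 to 41 CPM with a median of 28.1 CPM in Tph2-/- C mice. Of the Tph2-/- mice, 6 were above every wildtype mouse, at 1 to 13 counts per wildtype and 9 to 30 counts per Tph2-/- library. The lg2FC of 1.07 (SE 0.355) had a nominal p of 0.00418 and an exact permutation p of 0.00451. The nominal p was 0.0105 without Tph2+/+ C replicate 4, 0.0135 without Tph2-/- C replicate 7 and 0.014, with a lg2FC of 0.94, without both libraries rich in Gm42418. Gng3 (chr19:8836933-8839194, minus strand), a G protein gamma subunit of neurons with 398 exon bases opposite to Bscl2, ranged from 28 to 54.3 CPM in Tph2+/+ C mice and from 37.3 to 69.8 CPM in Tph2-/- C mice, with a lg2FC of 0.44 (SE 0.146) and a nominal p of 0.00422. Without Tph2+/+ C replicate 7 its nominal p was 0.0144, and without Tph2-/- C replicate 7 it was 0.0222. Psd3 (chr8:67689082-68212027, minus strand), an exchange factor for the small GTPase ARF6 with 114 exon bases opposite to Gm15991, ranged from 10.9 to 22.3 CPM and from 15 to 37.3 CPM, with a lg2FC of 0.74 (SE 0.253) and a nominal p of 0.00514. It lost its call without Tph2+/+ C replicate 3, 4 or 8 or Tph2-/- C replicate 5 or 8, where the nominal p was at most 0.022.

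Zmynd11 and Tmem11 completed the 12 higher DEGs with the smallest p. Zmynd11 (chr13:9684833-9765330, minus strand), a chromatin reader of a methylated histone, has 691 exon bases opposite to Gm36423 and had a lg2FC of 0.66 (SE 0.221) with a nominal p of 0.00414. Tmem11 (chr11:60864452-60879272, minus strand), a protein of the inner mitochondrial membrane, has 155 exon bases opposite to Gm26534 and had a lg2FC of 0.69 (SE 0.235) with a nominal p of 0.00468. Zmynd11 lost its call without Tph2+/+ C replicate 2 or 4 or Tph2-/- C replicate 1 or 4 (nominal p up to 0.0321), and Tmem11 without Tph2+/+ C replicate 2, 5 or 7 or Tph2-/- C replicate 5 (up to 0.0163). The other 5 higher DEGs were Nup43, a part of the nuclear pore, Gm44853, a processed pseudogene, Gnat2, the transducin of cones, Gm24140, a short RNA gene within the span of Thrb, and Synpo2l, an actin-associated protein of muscle. Their lg2FC lay between 0.34 and 0.72 with nominal p from 0.00596 to 0.00774, and each lost its call on removal of any of 5 to 10 libraries, with a nominal p of at most 0.0259. Without the mice with late animal numbers the lg2FC of Synpo2l was 0.47 against 0.72, with a nominal p of 0.154.

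The remaining lower DEGs were Gm11659, Trp53inp2, Tinf2 and Gm26744. Gm11659 (chr11:104250902-104259361, minus strand) is an antisense transcript within the span of the tau gene Mapt and ranged from 14.7 to 39.8 CPM in Tph2+/+ C mice and from 11 to 23.7 CPM in Tph2-/- C mice. Its lg2FC was -0.73 (SE 0.244) with a nominal p of 0.00399, which became 0.0223 without Tph2+/+ C replicate 2 and 0.017 without Tph2+/+ C replicate 4. Trp53inp2 (chr2:155381059-155389850, plus strand), which takes part in autophagy, had a lg2FC of -0.61 (SE 0.211) with a nominal p of 0.00562, and Gm26744 (chr16:21843451-21845776, minus strand), a long noncoding RNA within the span of Map3k13, had one of -0.53 (SE 0.195) with a nominal p of 0.00852. For Gm26744 the two-sided exact permutation p was 0.0586. Tinf2 (chr14:55674689-55681820, minus strand), a component of the shelterin complex of telomeres, shares 1540 exon bases with Gmpr2, an enzyme of purine metabolism. Its shared stretch includes 43 bases of Gmpr2 coding sequence at chr14:55677206-55677248 of GRCm38, shown on both strands for the same reason and from the same source as above.
Gmpr2 coding strand: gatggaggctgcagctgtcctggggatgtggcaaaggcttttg
Tinf2 strand: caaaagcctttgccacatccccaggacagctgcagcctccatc
Tinf2 ranged from 8.57 to 33.4 CPM with a median of 23.5 CPM in Tph2+/+ C mice and from 4.15 to 19.2 CPM with a median of 14.5 CPM in Tph2-/- C mice. The lg2FC was -0.68 (SE 0.237) with a nominal p of 0.00611 and a two-sided exact permutation p of 0.051. Gmpr2 had a median of 15 counts per library and Tinf2 one of 11. Trp53inp2 lost its call without Tph2+/+ C replicate 6 or 8 or Tph2-/- C replicate 2, 3 or 7 (nominal p up to 0.0195), Tinf2 without Tph2+/+ C replicate 1, 2, 5 or 8 or Tph2-/- C replicate 6 (up to 0.0244), and Gm26744 without any of 8 libraries, with 0.1 without Tph2+/+ C replicate 2. The lg2FC of Gm26744 ranged from -0.61 to -0.32 with 1 library left out.

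**Figure D3:**
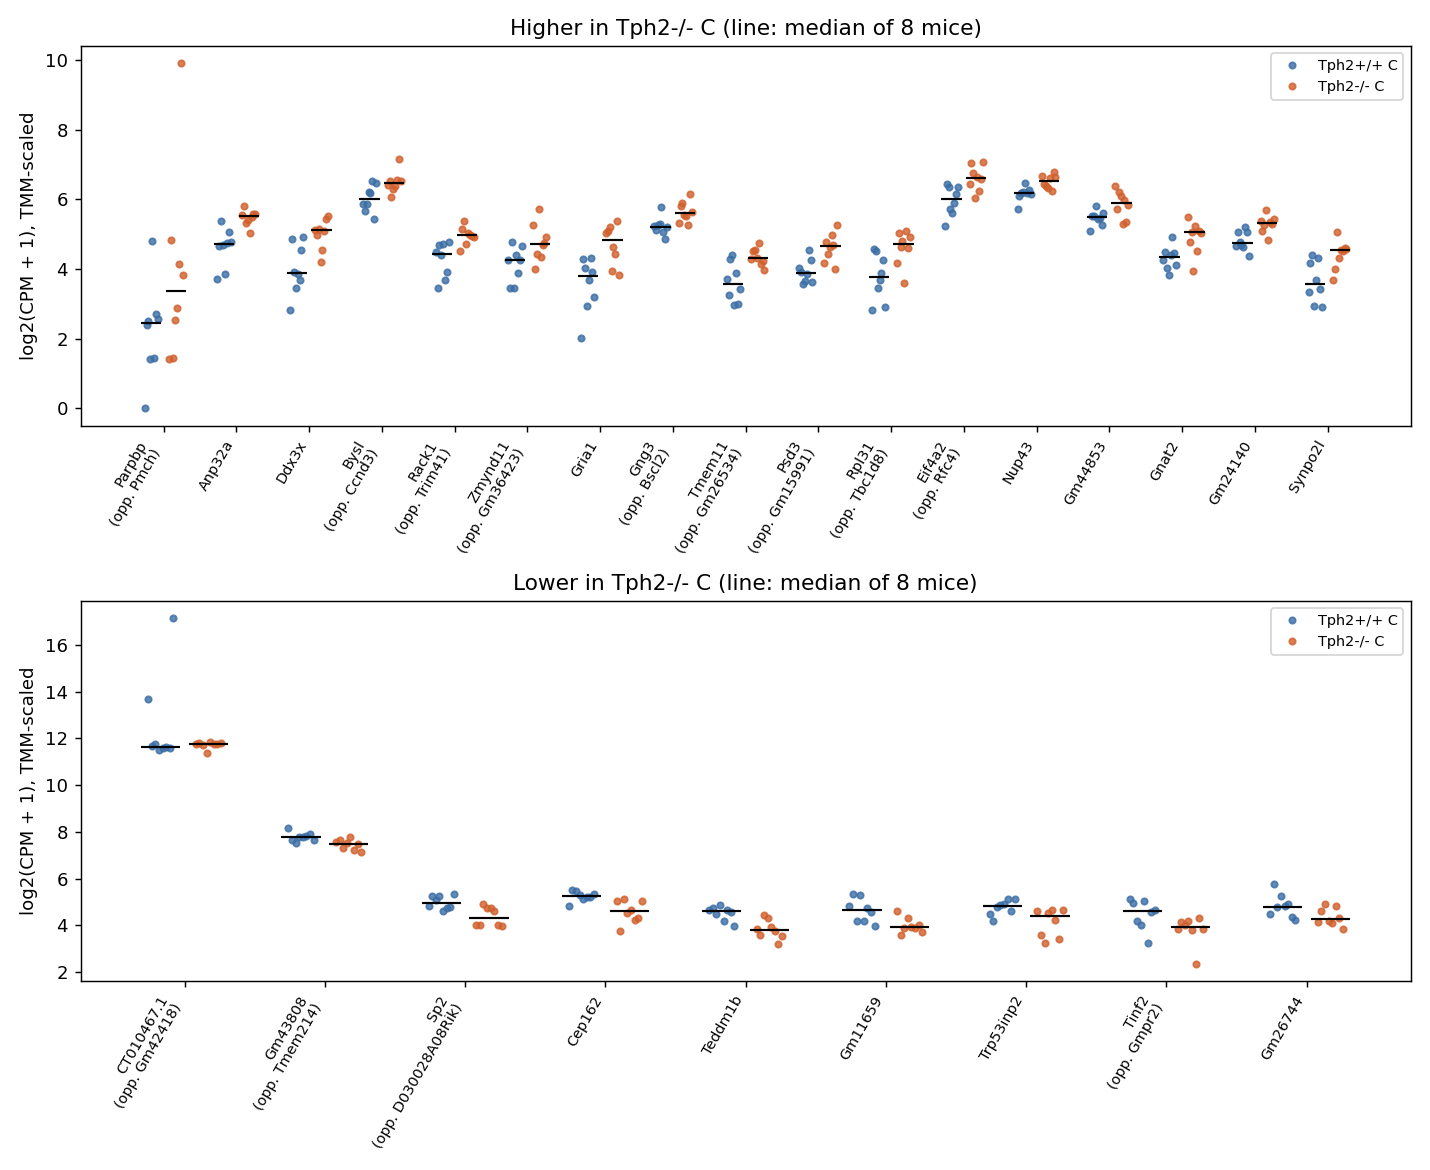
Level of each of the 26 DEGs as log2(CPM + 1) in the 8 Tph2+/+ C mice (blue) and the 8 Tph2-/- C mice (orange), 1 point per mouse, with the median as a black line and the gene opposite by exons in brackets. In every gene the genotypes overlap, and single mice set Parpbp and CT010467.1 apart.

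A grouping of the genes by whether another gene faces them was made after the values had been seen, and is given as a description. Of 707 protein coding genes without a gene on the opposite strand, 57.6% had a positive lg2FC, with a median of 0.04, 34 (4.81%) had a nominal p below 0.05 upward and 6 (0.849%) downward, against 1.89% and 1.39% of all genes described. Among the 3522 genes with opposite exons 47.7% had a positive lg2FC, with a median of -0.01, and 54 (1.53%) and 46 (1.31%) genes had a nominal p below 0.05 upward and downward. The 707 genes had a median of 18.4 counts, and their summed level was lowest in Tph2+/+ C replicate 1, at 37783 CPM against a median of 41033 CPM in its group and 42211 CPM in Tph2-/- C mice. Without this library the median lg2FC of the 707 genes was 0.03, and without the 3 libraries that stand apart it was 0.02. In MS their median lg2FC of Tph2-/- against Tph2+/+ mice was -0.01. Of the 17 higher DEGs, 8, or 47.1%, had their lowest wildtype level in this library, against 20.4% of all genes described, and 10 of the 17 were still called without it. Its part in these results beyond that was not tested.

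The gene lists for pathways held few genes that were counted. Over 9 pathway lists and 11 marker lists, 120 of the genes described were either listed or lay opposite to a listed gene, and 2 of them, or 1.67% against 0.469% of all genes described, were DEGs: Gria1 and Parpbp, the latter opposite to Pmch. Both lost their call without Tph2-/- C replicate 7 and without the mice with late animal numbers. The nominal p of Gria1 was then 0.0135 and 0.0178, while its lg2FC was 0.94 to 1.18 with any 1 library left out and 1.07 without those mice. That of Parpbp, 4.31 with all mice, was 0.73 and 0.38, with a nominal p of 0.4 and 0.73. Of the 120 genes, DESeq2 without a prior called Gria1 alone, and DESeq2 with a prior called Gria1 and the neuronal marker Syt1. A nominal p below 0.05 was reached by 10 of these 120 genes, or 8.33%, against 3.28% of all genes described. The median lg2FC of the 120 genes was 0.00.

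The serotonin system was measured through 4 of its 29 listed genes and through 2 genes opposite to listed ones. None was a DEG or had a nominal p below 0.05, against 0.469% and 3.28% of all genes described. Htr1b, the 5-HT receptor that also serves as autoreceptor on serotonergic axons, ranged from 40.3 to 67.3 CPM in Tph2+/+ C mice with a median of 60.9 CPM, and from 42.4 to 72.7 CPM in Tph2-/- C mice with a median of 49.6 CPM. Its lg2FC was -0.17 (SE 0.148), and that of D430036J16Rik, which shares 852 exon bases with it, was -0.12 (SE 0.144). Htr2b, another 5-HT receptor, with 252 exon bases opposite to Psmd1, had medians of 185 CPM in Tph2+/+ C and 183 CPM in Tph2-/- C mice, with a lg2FC of -0.05 (SE 0.0921). The vesicular monoamine transporter gene Slc18a2, with 111 exon bases opposite to Gm29261, had medians of 237 CPM and 253 CPM, with a lg2FC of 0.02 (SE 0.171), and Slc18a1 had a lg2FC of -0.06 (SE 0.163). Gm42413, opposite to Qdpr, which regenerates the cofactor of TPH2, had a lg2FC of -0.08 (SE 0.079). The values of both genotypes overlapped throughout in these 6 genes. The other 24 listed genes, among them Tph2, could not be followed, because neither they nor a gene opposite to them reached a mean of 10 counts.

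Of 36 receptors for glutamate and GABA, 12 were measured themselves and 11 genes lay opposite to a listed gene, with median lg2FC of 0.06 and 0.01. Gria1 was the only DEG among them and the only one with a nominal p below 0.05. The AMPA receptor gene Gria2 had a lg2FC of 0.50 (SE 0.262) with a nominal p of 0.0613, and Gabra2, a subunit of the GABA-A receptor, one of 0.52 (SE 0.274) with a nominal p of 0.0616, so that neither was called. Grin2b, a subunit of the NMDA receptor, had a lg2FC of 0.40 (SE 0.26) by its own counts, from 9.12 to 37.8 CPM in Tph2+/+ C mice and from 30.5 to 47.9 CPM in Tph2-/- C mice. Of the 3 genes opposite to Grin2b, Gm14329 had a lg2FC of 0.01 (SE 0.0989), Gm22892 one of 0.10 (SE 0.108) and Gm26653 one of -0.16 (SE 0.125). Grin1os, opposite to Grin1, ranged from 1790 to 2703 CPM and from 1939 to 2423 CPM, with a lg2FC of -0.05 (SE 0.0823). For Grin2d, opposite to Gm45441, the lg2FC was -0.19 (SE 0.137), for the metabotropic receptor Grm3 -0.30 (SE 0.181), and for Grin3a 0.06 (SE 0.113).

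**Figure D4:**
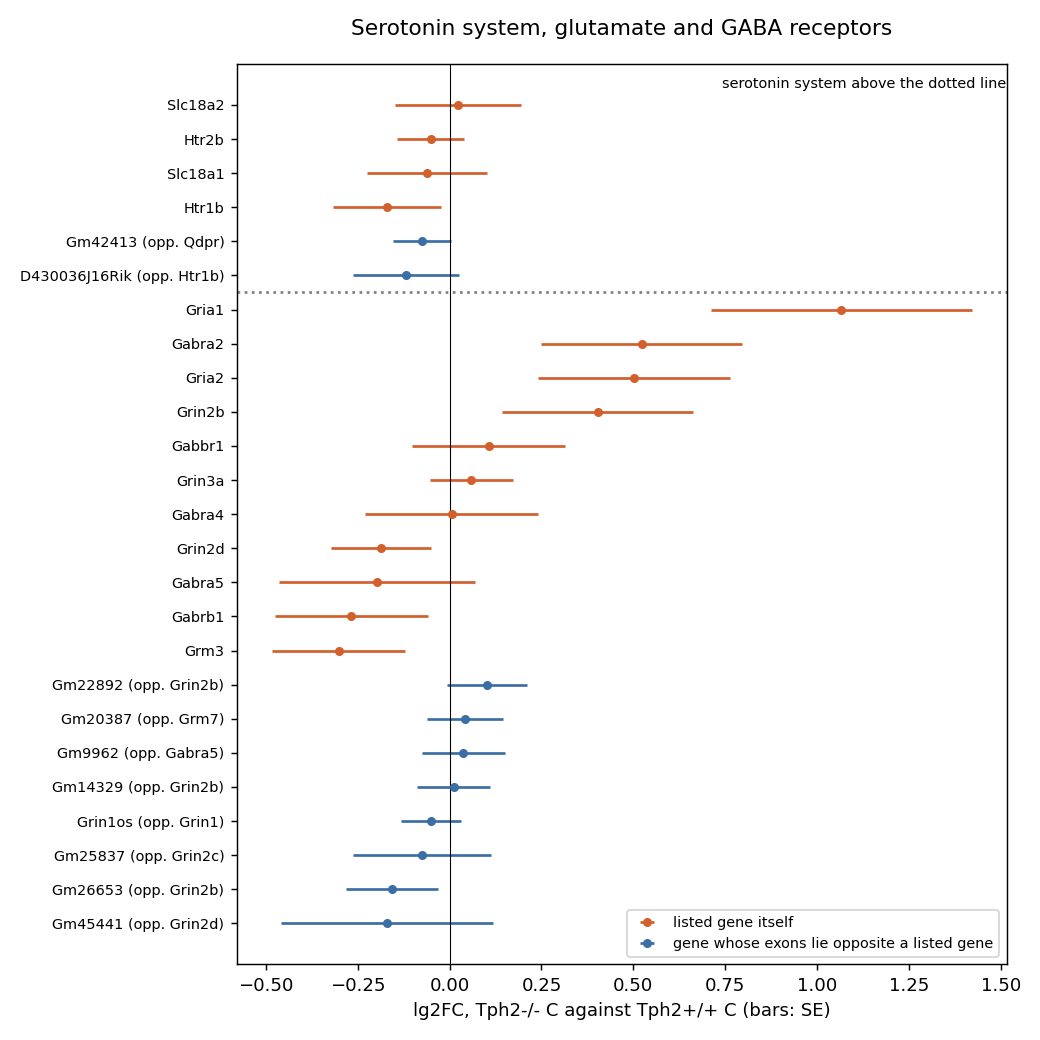
The lg2FC of Tph2-/- C against Tph2+/+ C with its SE (bars) for genes of the serotonin system and for glutamate and GABA receptors reported here, by their own counts (orange) or by the counts of a gene opposite to them (blue). A gene that is listed and also lies opposite to a listed gene is shown once, in orange. Gria1, at 1.07, lies furthest from 0.

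The neuropeptide list gave 1 counted gene of its own, the mu opioid receptor gene Oprm1, with 86.5 to 110 CPM in Tph2+/+ C mice, 77.1 to 119 CPM in Tph2-/- C mice and a lg2FC of 0.08 (SE 0.137). Ipcef1, with 96 exon bases opposite to Oprm1, had a lg2FC of -0.54 (SE 0.267) with a nominal p of 0.0491, and was called without Tph2+/+ C replicate 5, at 0.00628. A830012C17Rik, opposite to the enkephalin precursor gene Penk, had one of -0.26 (SE 0.287). For the other 39 of 42 listed genes neither they nor an opposite gene reached a mean of 10 counts.

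Of the activity-regulated genes, 3 of 25 were counted themselves and 3 genes lay opposite to one, with no DEG. The transcription factor gene Junb, opposite to Prdx2, had a lg2FC of -0.01 (SE 0.0812), Jund, with 877 exon bases opposite to Gm11175, 0.16 (SE 0.419) and the neuropeptide precursor gene Vgf 0.15 (SE 0.16). Gm45346, with 896 exon bases opposite to Bdnf, the gene of a neurotrophin, ranged from 25 to 67.1 CPM with a median of 36.7 CPM in Tph2+/+ C mice and from 45.1 to 65.1 CPM with a median of 53.5 CPM in Tph2-/- C mice. Its lg2FC of 0.45 (SE 0.186) had a nominal p of 0.019 and was not called by edgeR with all 48 samples and the filter on counts. By edgeR it was called with only the 16 samples (nominal p 0.00764) and with no filter on low counts (0.0074). It was also called without the mice with late animal numbers (0.00486, lg2FC 0.66) and without Tph2+/+ C replicate 8 (0.00211, lg2FC 0.61). Without the 3 libraries that stand apart it was called as well (0.00601, lg2FC 0.58). Bdnf itself had 0 to 8 counts per library. Among the other genes of neurotrophin signalling the receptor gene Ntrk3 had a lg2FC of 0.39 (SE 0.182) with a nominal p of 0.0537, Creb1 one of -0.21 (SE 0.186), Camk4, opposite to 2310026I22Rik, one of 0.11 (SE 0.216), and Gm12523, opposite to the sorting receptor gene Sort1, one of 0.01 (SE 0.216).

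In the stress hormone axis, 3 of 18 genes were counted and 1 gene lay opposite to one, again with no DEG. The mineralocorticoid receptor gene Nr3c2 had a lg2FC of 0.02 (SE 0.231), and Gm10649 opposite to it had 0.25 (SE 0.145). The chaperones that hold steroid receptors, Hsp90aa1 and Hsp90ab1, had lg2FC of 0.45 (SE 0.338) and 0.55 (SE 0.271), with a nominal p of 0.187 and 0.0476. In the circadian clock, 3 of 18 genes and 7 opposite genes were measured. Nr1d1, a repressor within the clock, opposite to Thra, ranged from 1926 to 2365 CPM and from 1551 to 2280 CPM, with a lg2FC of -0.13 (SE 0.0914), while Clock had 0.28 (SE 0.165) and Ciart -0.20 (SE 0.251). Sphk2, opposite to Rpl18 and to the clock output gene Dbp, had a lg2FC of -0.11 (SE 0.106) and D930015M05Rik, opposite to Cry2, one of -0.10 (SE 0.0976). 0610040F04Rik and Gm43909, opposite to the repressor genes Bhlhe40 and Bhlhe41, had lg2FC of -0.23 (SE 0.114) and -0.28 (SE 0.131) with a nominal p of 0.045 and 0.037, and neither was called.

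Of the imprinted genes, 11 of 42 were counted themselves and 18 genes lay opposite to one, with no DEG and median lg2FC of 0.02 and 0.01. The ubiquitin ligase gene Ube3a, opposite to Gm44560, Snhg14 and 9330162G02Rik, with 4217 to 9491 CPM in Tph2+/+ C mice and 4104 to 9671 CPM in Tph2-/- C mice, had a lg2FC of 0.05 (SE 0.259). Gm20721, opposite to Gnas, ranged from 14487 to 16599 CPM and from 12127 to 17799 CPM, with a lg2FC of -0.01 (SE 0.0748). Copg2 had a lg2FC of -0.05 (SE 0.113), Mest, opposite to Copg2, 0.02 (SE 0.0925), Inpp5f -0.03 (SE 0.114), Gm23134, opposite to Nnat, 0.01 (SE 0.12) and Zim3, opposite to Usp29 and Zfp264, -0.07 (SE 0.159). Peg3, a zinc finger gene without opposite exons, had a lg2FC of 0.67 (SE 0.303) with a nominal p of 0.0326, from 6.08 to 91.1 CPM in Tph2+/+ C mice with a median of 49.3 CPM and from 57.8 CPM upward in Tph2-/- C mice with a median of 80 CPM. The lowest wildtype value came from Tph2+/+ C replicate 1. Without Tph2+/+ C replicate 7 Peg3 was called, at a nominal p of 0.00726. Of the mitochondrial genome 15 of 37 genes were counted, and none was a DEG by edgeR with all 48 samples and the filter on counts. By edgeR mt-Co1 was called with only the 16 samples (nominal p 0.00571) and with no filter on low counts (0.00763). Without Tph2-/- C replicate 1 mt-Rnr2 was called (0.00854, lg2FC -2.81). Here mt-Cytb had a lg2FC of 0.03 (SE 0.0846), mt-Nd5 -0.16 (SE 0.119), mt-Nd6, opposite to mt-Nd5, -0.37 (SE 0.218), mt-Co1 0.23 (SE 0.117) and mt-Ts1, opposite to mt-Co1, -0.19 (SE 0.206), while mt-Rnr2, at -1.94 (SE 0.96), was the gene already described that was highest in replicate 1 of both genotypes.

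Of 15 cell type markers measured themselves, 0 were DEGs by edgeR with all 48 samples and the filter on counts. A nominal p below 0.05 was reached by 1, Syt1. Over all genes described, 0.469% were DEGs and 3.28% had such a p. The neuronal markers Syt1, Map2, Nefl and Snap25 had lg2FC of 0.72 (SE 0.287), 0.45 (SE 0.35), 0.48 (SE 0.244) and 0.41 (SE 0.335) by their own counts, with a nominal p of 0.0151 for Syt1, a calcium sensor of vesicle release. DESeq2 with a prior called Syt1, with a lg2FC of 0.32 and a nominal p of 0.00914, and so did edgeR with only the 16 samples (0.00525) and with no filter on low counts (0.00111). Nefl was also called with no filter, at 0.00796. Summed over 14 neuronal markers, Tph2+/+ C mice had 76 to 224 CPM with a median of 155 CPM and Tph2-/- C mice 119 to 288 CPM with a median of 225 CPM, with the lowest value in Tph2+/+ C replicate 1. Of the genes opposite to neuronal markers, Nefm, opposite to Nefl, had a lg2FC of 0.01 (SE 0.0907), Gm10558, opposite to Map2, one of -0.06 (SE 0.0748), Gm14205, opposite to the GABA transporter gene Slc32a1, 0.00 (SE 0.177) and Gm26906, opposite to Meg3, 0.01 (SE 0.14). Whether the offset in the neuronal markers bears on Gria1, Gng3 and Psd3 was not tested. For astrocytes, Slc1a2 had a lg2FC of 0.37 (SE 0.333), S100b 0.06 (SE 0.212), Gm13872, opposite to Slc1a2, -0.02 (SE 0.0721) and Gm15756, opposite to Aldh1l1, -0.05 (SE 0.119). For oligodendrocytes, Cnp had -0.07 (SE 0.0655), Mog 0.27 (SE 0.179) and Dnajc7, opposite to Cnp and Nkiras2, 0.20 (SE 0.189). For microglia, Csf1r, with 873 exon bases opposite to Hmgxb3, had 0.05 (SE 0.109), P2ry12 -0.16 (SE 0.172) and Med12l, opposite to P2ry12, Igsf10 and Gm43570, -0.08 (SE 0.171), while C1qa, C1qb and Tmem119 had 0 counts in all 16 libraries.

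Markers of blood, choroid plexus and neighbouring brain regions were not DEGs either, and of the genes opposite to them only Parpbp was. The choroid plexus gene Kcnj13 had a lg2FC of -0.08 (SE 0.143), and Gigyf2 opposite to it 0.67 (SE 0.644) with values from 15.4 to 1099 CPM. Summed over 10 choroid plexus markers the medians were 144 CPM in Tph2+/+ C mice and 152 CPM in Tph2-/- C mice, with Aqp1 and Otx2 at 0 counts. For blood, Alas2 had a lg2FC of -0.03 (SE 0.123) and Apex2, opposite to Alas2 and Pfkfb1, 0.31 (SE 0.286), while all 4 hemoglobin genes were at 0 counts. The hypothalamic gene Agrp had a lg2FC of -0.51 (SE 0.257) with a nominal p of 0.0507, and Ctcf opposite to it 0.26 (SE 0.188). 1700003D09Rik, opposite to the striatal gene Ppp1r1b, had a lg2FC of -0.02 (SE 0.178). Gm15511, opposite to the thalamic marker Rora, had -0.15 (SE 0.15). No gene of the lists for endothelium and pericytes or for hippocampus and cortex reached a mean of 10 counts.

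Genes close to a targeted locus are inherited together with it. Within 20 Mb on either side of Tph2 on chromosome 10, 51 genes were described. By edgeR with all 48 samples and the filter on counts, 0 of the 51 were DEGs, against 0.469% of all genes. The median lg2FC of the 51 was 0.02, with a range of -0.39 (Pmel) to 0.72 (Syt1). A nominal p below 0.05 was reached by 5 of them, or 9.8%, against 3.28% of all genes. DESeq2 with a prior called 1 of them, Syt1. The nearest of them, Gm15723, 261810 bases away and opposite to Trhde, had a lg2FC of 0.19 (SE 0.206). Syt1, 6.07 Mb away, was the gene with the smallest p there, and the kinesin gene Kif5a, 12 Mb away, had a lg2FC of 0.60 (SE 0.274) with a nominal p of 0.0331. Pmel, opposite to Dgka and Cdk2, and Gm28592, opposite to Phlda1, had a nominal p of 0.0369 and 0.0444. Dnajc14, 13.6 Mb away, opposite to Ormdl2 with 1114 exon bases and to Tmem198b, had a lg2FC of 0.34 (SE 0.158) with a nominal p of 0.0348. Without both libraries rich in Gm42418 Dnajc14 was called, with a lg2FC of 0.48 and a nominal p of 0.00356. Without the 3 libraries that stand apart its lg2FC was 0.57 with a nominal p of 0.00105. Without Tph2+/+ C replicate 3 or Tph2-/- C replicate 4, Syt1 was called, at a nominal p of 0.00823 and 0.00466. Kif5a was called without Tph2+/+ C replicate 7, at 0.0078, and Dnajc14 without Tph2-/- C replicate 1, at 0.00794. With only the 16 samples edgeR called Syt1 and Kif5a, at a nominal p of 0.00525 and 0.00958. With no filter on low counts it called both, at 0.00111 and 0.00888, and also Tmtc3, Zbtb39, Il22 and Iltifb, which were not among the 51.

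The same genotypes in MS, which are other mice, were used to look at the 26 DEGs again. All mice with late animal numbers were in C, and no range of numbers was shared by C and MS. Anything that goes with the numbers thus cannot be told apart from rearing. In MS, Tph2-/- mice differed from Tph2+/+ mice by 111 DEGs, or 2.0% of the 5549 genes, with 1 gene (0.018%) at an adjusted p below 0.05. Of the 26 DEGs of control rearing, 14 had the same sign in MS, or 53.8%, against 55.2% of all genes described, and the median absolute lg2FC was 0.667 in C and 0.153 in MS, compared with 0.113 in MS over all genes. Without the mice with late animal numbers 14 of the 26 again had the same sign in C and MS, while of the 21 genes then called 3, or 14.3%, had. Of the 26, 2 had the same sign with a nominal p below 0.05, Cep162 and Bysl, against 4.96% of all genes, and only Cep162 was a DEG in both conditions. Cep162 ranged from 21.5 to 43.2 CPM in Tph2+/+ MS mice with a median of 32.6 CPM, and from 12.6 to 31 CPM in Tph2-/- MS mice with a median of 18.6 CPM. Its lg2FC in MS was -0.65 (SE 0.201) with a nominal p of 0.00208, against -0.65 in C. Bysl had a lg2FC of 0.33 (SE 0.146) with a nominal p of 0.0266 in MS. Anp32a, in contrast, ranged from 23 to 46.4 CPM in Tph2+/+ MS mice and from 16.2 to 43.7 CPM in Tph2-/- MS mice, with a lg2FC of -0.06 (SE 0.202).

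The gene called in MS at an adjusted p below 0.05 was Acp1 (chr12:30893326-30911589, minus strand), a small tyrosine phosphatase with 529 exon bases opposite to Alkal2. Its lg2FC in MS was 0.88 (SE 0.168) with an adjusted p of 0.0132. In C it ranged from 21.3 to 42.6 CPM in Tph2+/+ mice and from 22.5 to 55.2 CPM in Tph2-/- mice, with a lg2FC of 0.40 (SE 0.174), a nominal p of 0.0236 and a two-sided exact permutation p of 0.0682. The lg2FC in MS minus that in C was 0.48 with a nominal p of 0.0547.

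For 7 of the 26 DEGs the genotype difference itself differed between MS and C at a nominal p below 0.01, although none did at an adjusted p below 0.05. Over all 5549 genes 29, or 0.523%, met the thresholds of a DEG for this difference, 3.26% had a nominal p below 0.05 and 0 an adjusted p below 0.05. The test shares the C libraries by which the 26 were called, so that a large difference in C enters both.

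**Figure D5:**
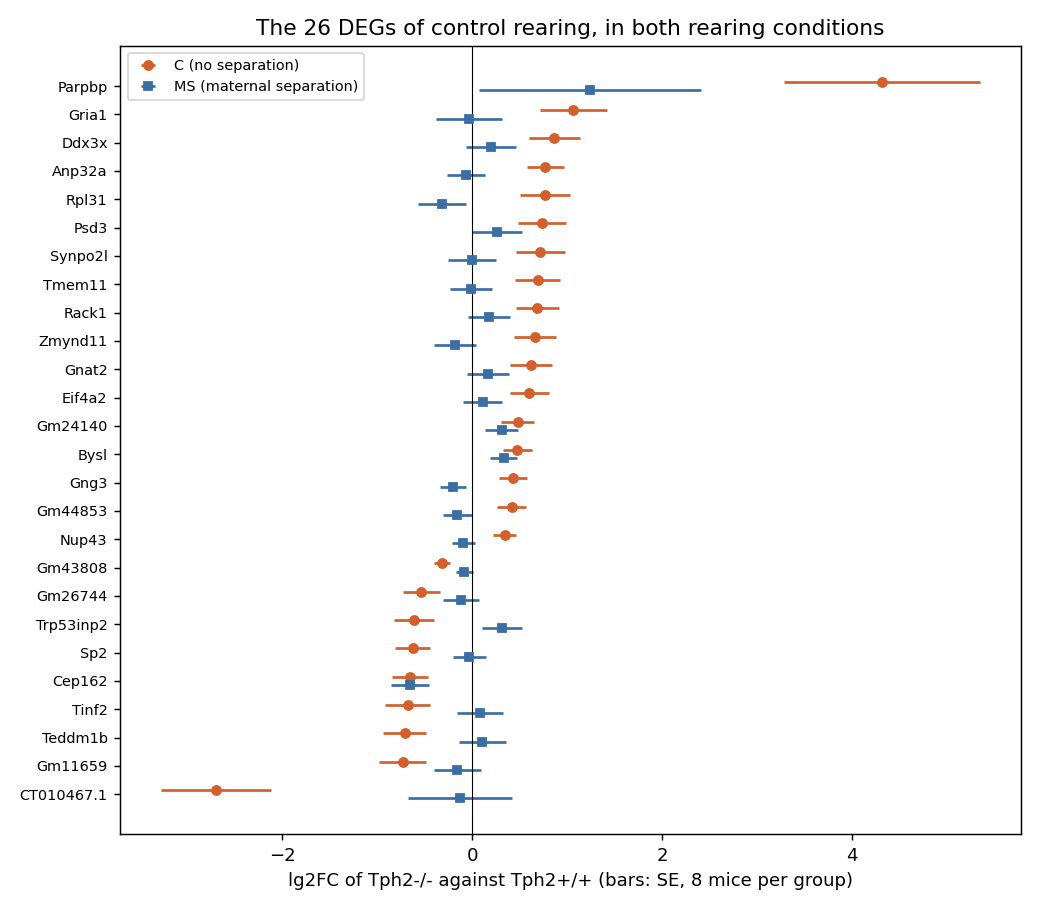
The lg2FC of Tph2-/- against Tph2+/+ mice with its SE (bars) for the 26 DEGs of control rearing, in C (orange circles) and in MS (blue squares), 8 mice per group. Most MS values lie near 0, and those of Cep162 lie at -0.65 in both conditions.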

How the data were processed

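Stranded total RNA libraries of mouse amygdala were sequenced by the authors as read pairs and mapped to GRCm38.p5. The labels name STAR, HTSeq and DESeq2 without versions, and the annotation and strand setting of the counting are not given in the sources used here. The values deposited by the authors are raw counts of read pairs per Ensembl gene. All columns were matched to a mouse by their names.

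From these counts, 5 special entries (pairs not assigned to a gene), Lars2 and Gm42418 were dropped, and genes with a mean of at least 10 counts over the 16 libraries were kept. A model with 6 groups (48 libraries) was fitted with edgeR 4.0.16 in R 4.3.3, using TMM and robust quasi-likelihood F tests with Benjamini-Hochberg adjustment over 5549 genes. This differs from the study, which used DESeq2, here run in version 1.42.0 as an alternative. DEGs passed 2 limits, an absolute lg2FC over 0.2 and a nominal p under 0.01. CPM were scaled by TMM library sizes. Exact permutation tests compared mean log2(CPM + 1), two-sided, 8 against 8 mice, with 0.000155 as smallest possible p. The scripts were tested on simulated data. Opposite genes came from GENCODE M21, which holds 5528 of the 5549 genes. Litters are not given in the labels, so litter mates may be counted as separate mice. Floors cover counting error only, while SE include the spread between mice.

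Genes named were up to 12 DEGs with the smallest p in each direction, the other DEGs, up to 4 genes with the most counts per list and the genes close to the filter. Further list genes, those with a nominal p below 0.05, those with large lg2FC, Acp1 and genes that illustrate the strand were added after their values had been seen. The values of some list genes are not reported here, although the counts per list include them. The members and lists were chosen with earlier results of these data known. Python 3.11.15, NumPy 2.4.6, SciPy 1.17.1, pandas 2.3.3 and matplotlib 3.10.9 were used.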

Additional observations from a re-analysis of the deposited data

Results flagged for a closer look

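A single mouse lay far from the other 7 of its group, by Dixon's criterion at 95%, in 7 of the 52 sets of 8 CPM values of the DEGs. Chance marks about 1 in 20 independent sets, and DEGs were chosen on these same values. The 7 were CT010467.1 at 143590 CPM in Tph2+/+ C replicate 8 and at 2663 CPM in Tph2-/- C replicate 4, Parpbp at 27.1 CPM in Tph2+/+ C replicate 5 and at 964 CPM in Tph2-/- C replicate 7, Bysl at 144 CPM in Tph2-/- C replicate 7, Gng3 at 54.3 CPM in Tph2+/+ C replicate 5 and Tinf2 at 4.15 CPM in Tph2-/- C replicate 6. Tph2-/- C replicate 7 was thus the highest mouse for both Parpbp and Bysl. It was also the highest Tph2-/- mouse for Gria1, Gng3 and Nup43 and, among the lower DEGs, for Tinf2, without being marked there.

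Library totals lay apart in 6 further sets, which are not independent of each other and belong to 2 libraries already named for these counts. Tph2+/+ C replicate 1 had 6296568 counts on genes, 1307622 on Lars2 and 4569582 on Gm42418, and Tph2-/- C replicate 1 had 1819527, 295482 and 903823.

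For 7 DEGs the genotype difference in MS minus that in C had a nominal p below 0.01. It was 2.57 for CT010467.1, -0.84 for Anp32a, -0.84 for Zmynd11, -0.63 for Gng3, -1.08 for Rpl31, 0.92 for Trp53inp2 and -0.57 for Gm44853, on the lg2FC scale. In the last 6 of these genes the lg2FC had opposite signs in C and in MS. The smallest adjusted p of these differences was 1.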

How the results depend on the processing

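The 17 higher and 9 lower DEGs became 28 and 12 with filterByExpr, 208 and 66 (0.85% of 32233 genes) with no filter on low counts and 41 and 5 with only the 16 samples. With 1 library left out there were 11 to 28 higher and 7 to 18 lower DEGs, or 21 to 40 in all, with over 1.5 times the change in a direction without Tph2+/+ C replicate 7 (18 lower) or Tph2-/- C replicate 1 (16 lower), 4 (28 higher) or 8 (11 higher). With dispersions without the robust option 1 gene, CT010467.1, had an adjusted p below 0.05, and with 1 library left out 0 genes had. Near Tph2, 1 gene was called by DESeq2 with a prior, 6 with no filter, 2 with only the 16 samples, 1 without both libraries rich in Gm42418 and 1 without the 3 libraries that stand apart, an alternative chosen after seeing the data, and 0 to 1 with 1 library left out. The share of DEGs with the same sign in MS was 14.3% without mice with late animal numbers and 47.6% to 71.4% with 1 library left out. Genes differing between C and MS numbered 271 with no filter and 22 to 32 with 1 library left out, and DEGs on lists numbered 1 without both libraries rich in Gm42418, where Gria1 lost its call. The lg2FC of CT010467.1 was 0.10 without the 3 libraries that stand apart. For the other values the cause was not tested.

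Of single DEGs, 4 of 26 remained DEGs without the mice with late animal numbers, 17 without both libraries rich in Gm42418, 16 without the 3 libraries that stand apart, 20 with only the 16 samples and 23 with DESeq2. Deviations of same-numbered mice correlated at -0.093 to 0.266, above 0.1 in 3 of 8 pairs, each of these 3 with its own number as best match. Lars2 and Gm42418 together took 93.3% and 65.9% of the counts in replicate 1 of Tph2+/+ C and Tph2-/- C. In replicate 2 they took 11.1% and 13.9%, against 2.67% to 5.06% in the other libraries of both groups. The numbers were not taken to pair the mice, and what they stand for was not tested. With the replicate block 28 genes were DEGs, 0 near Tph2, and 23 of the 26 were kept.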
